A study of Homo sapiens with 6 samples.

Results

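The plasminogen activator system was examined in NCI-H660 (H660) cells through 9 genes matched by symbol, which were PLAU, PLAT, PLAUR, SERPINE2, SERPINB2, SERPINI1, LRP1, ANXA2 and S100A10. These are 9 of the 28008 gene symbols in the deposited count table, and 8 of the 9 passed the filter on low counts and were tested together with the other genes, 17026 in all. PLAU was chosen for its rise after MUC1 silencing in these same libraries, so its values are given as a description with no p value. H660 is an established neuroendocrine prostate cancer (NEPC) line. All cultures held the pLKO-tet-puro vector with a MUC1 shRNA, a hairpin transcript that silences MUC1 when tetracyclines induce it, and had been selected in puromycin. DOX-negative cells received 0.1% DMSO (n = 3) and DOX-positive cells received doxycycline (DOX) at 500 ng/ml for a week, which switches the hairpin on (n = 3). No culture with a control hairpin and DOX was analysed here, so effects of DOX, of this hairpin and of the loss of MUC1 cannot be told apart. The triplicates are separate cultures per the labels, all of 1 line.

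Plasminogen is a circulating proenzyme that proteases called plasminogen activators convert to plasmin, which dissolves fibrin and degrades extracellular matrix. Urokinase (uPA, from PLAU) acts mainly at the surface of cells, bound to its receptor uPAR (from PLAUR), and tissue-type activator (tPA, from PLAT) acts mainly on fibrin and in the nervous system. Serpins block both activators, LRP1 takes serpin-bound activators into the cell, and the annexin A2 tetramer of ANXA2 and S100A10 holds plasminogen and tPA at the cell surface. In carcinomas, uPA and uPAR are known for their part in invasion and metastasis.

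Total counts ranged from 47620696 to 74061121 per library. MUC1, the silenced gene, was between 79.6 and 90.2 CPM (library-scaled counts, with TMM factors) in the DOX-negative libraries and between 29.9 and 37.2 CPM in the DOX-positive libraries, and changed by -1.32 in log2 terms (SE 0.096, adjusted p = 0.00017). Adjusted p values are those of edgeR's quasi-likelihood test with Benjamini-Hochberg adjustment over all 17026 genes, and genes under 0.05 are referred to as called. Of those genes, 4.87% were called, 2.91% as higher and 1.96% as lower in DOX-positive cells. The CPM ranges of the groups did not overlap for 28.1% of tested genes, with 14.8% higher and 13.3% lower. Neuroendocrine markers were abundant in all 6 libraries, with a summed level over 7 genes of 1610 to 1810 CPM without DOX and 1340 to 1620 CPM with DOX, and NCAM1 and INSM1 were called lower.

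Sequences just before a start site of 3 members are shown because PLAU leads the list and because ANXA2 and PLAUR, whose groups did not overlap either, held an AP-1 motif there (RefSeq promoter table, GRCh38.p14). S100A10, which was called higher without overlap, held 0 AP-1 motifs and 1 GC box in its window and is not shown. Capitals mark matches to the AP-1 motif TGANTCA or the GC box GGGCGG, each searched on both strands in the 250 bases before a start site. The PLAU and ANXA2 stretches hold no bases of the exons of their gene. The PLAUR stretch shows 29 bases around its motif and was not checked against exons. Overlapping matches were kept. The PLAU stretch lies at chr10:73910882-73911103 on the plus strand, the ANXA2 stretch at chr15:60398044-60398236 on the minus strand and the PLAUR stretch at chr19:43670338-43670366 on the minus strand.
PLAU: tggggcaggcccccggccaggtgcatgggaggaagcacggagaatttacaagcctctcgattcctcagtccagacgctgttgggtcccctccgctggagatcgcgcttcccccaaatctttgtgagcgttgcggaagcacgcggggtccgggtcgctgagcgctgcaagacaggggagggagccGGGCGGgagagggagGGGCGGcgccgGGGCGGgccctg
ANXA2: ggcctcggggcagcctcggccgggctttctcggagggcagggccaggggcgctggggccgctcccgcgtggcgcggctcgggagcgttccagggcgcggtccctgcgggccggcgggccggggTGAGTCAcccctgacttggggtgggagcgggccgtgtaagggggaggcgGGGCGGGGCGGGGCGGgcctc
PLAUR: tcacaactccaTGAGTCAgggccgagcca
PLAU has windows at 2 start sites, and neither held the AP-1 motif in its 250 bases. Both start sites, chr10:73910610 and chr10:73911132, lie inside the annotated gene (chr10:73908832-73917494). No window covered the sequence before the first base of the gene, and sequence further upstream of the windows was not searched. The window shown held 3 GC boxes, which begin 66, 51 and 40 bases before its start site. ANXA2 held an AP-1 motif 127 bases upstream and 3 GC boxes that overlap by a base, and PLAUR held an AP-1 motif 186 bases upstream. Over the 10 windows of the 8 members in the table, 3 held the AP-1 motif (those of ANXA2, PLAUR and SERPINB2) and 6 held a GC box, while 6.57% and 42.6% of all 35116 windows held them. A match is a string of letters, and binding was not measured in these libraries.

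PLAU rose in all 3 DOX-positive cultures. The gene lies at chr10:73908832-73917494 (GRCh38.p14) and encodes urokinase. Its normalized level was 12.5, 10.6 and 10.7 CPM in DOX-negative replicates 1, 2 and 3 and 26.6, 31.8 and 39.8 CPM in DOX-positive replicates 1, 2 and 3. The 3 DOX-negative libraries lay close together, and even the lowest DOX-positive library was well above all of them. The means were 11.3 ± 1.08 and 32.8 ± 6.65 CPM (SD, n = 3). They differed 2.9-fold, or by 1.54 on the log2 scale (SE 0.14). The 95% interval of 1.24 to 1.83 does not allow for PLAU having been chosen for this rise. The counts behind these levels were between 509 and 801 per library without DOX and between 1751 and 2935 with DOX. Among the 14587 genes averaging 50 or more counts, PLAU had the rank of 7 by log2 fold change, which is the property it was chosen for. With 1 library left out, its change was between 1.37 and 1.67, the lowest being without DOX-positive replicate 3, which had the most PLAU. The RefSeq annotation places the noncoding gene C10orf55 at chr10:73909969-73922777 on the opposite strand across most of PLAU. C10orf55 was not analysed here, and as the strand setting of the counting was not given in the sources used here, reads from it could not be separated from those of PLAU.

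**Figure D1:**
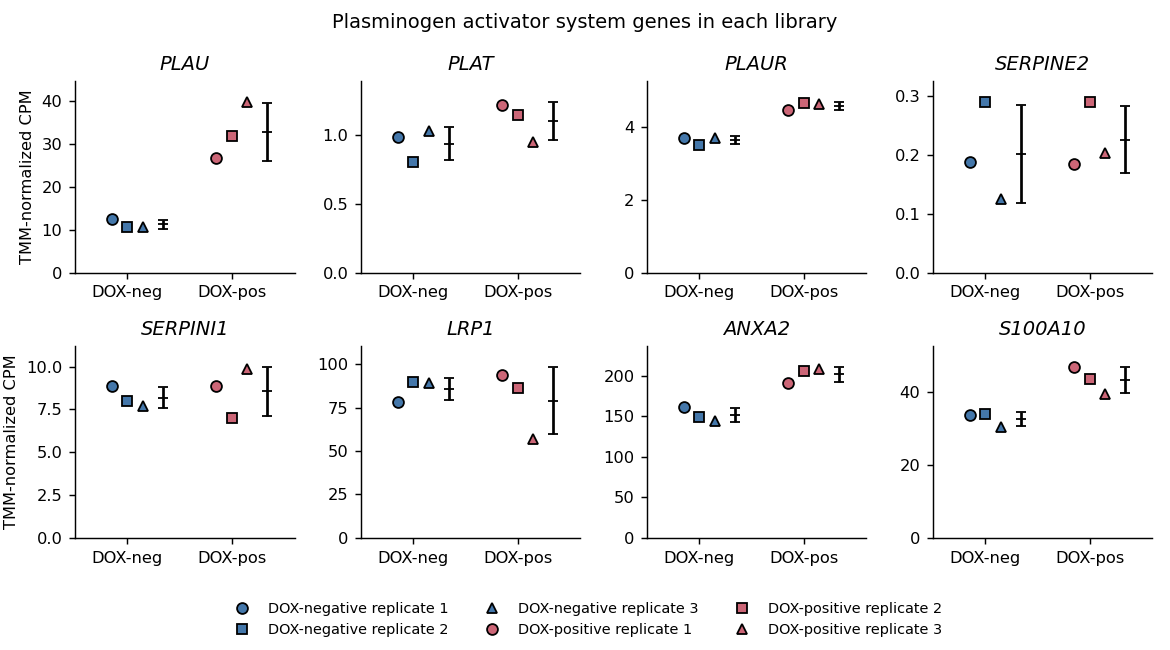
TMM-normalized CPM of the 8 tested genes in each of the 6 libraries, with 1 panel per gene and a linear axis from 0; symbols give the replicate and black bars the mean ± SD (n = 3). PLAU, PLAUR, ANXA2 and S100A10 have every DOX-positive library above every DOX-negative library, while PLAT, SERPINE2, SERPINI1 and LRP1 overlap.

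The other activator was scarce. PLAT (chromosome 8, tPA) had 63, 50 and 49 counts in the DOX-negative libraries and 92, 63 and 70 counts in the DOX-positive libraries. Its levels of 0.941 ± 0.117 and 1.1 ± 0.139 CPM (SD, n = 3) overlapped between the groups, and the log2 fold change was 0.23 (SE 0.19, 95% interval -0.19 to 0.66, adjusted p = 0.54). The interval does not leave out a rise of up to 0.66 on the log2 scale. Compared per length in deposited TPM (corrected for gene length, with an equal total in each library), PLAU was 15.4, 15.9 and 12.6 times the level of PLAT in the DOX-negative libraries and 26.5, 33.7 and 50.8 times in the DOX-positive libraries. PLAU was therefore the more abundant activator transcript in every library, before as well as after silencing.

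PLAUR, at chr19:43646095-43670169, encodes the receptor that localizes urokinase to the cell surface. Its level was 3.71, 3.51 and 3.7 CPM without DOX and 4.46, 4.66 and 4.64 CPM with DOX. The libraries of a group lay within a narrow band and the bands did not overlap. The means of 3.64 ± 0.113 and 4.58 ± 0.109 CPM (SD, n = 3) gave a log2 fold change of 0.33 (SE 0.11, 95% interval 0.09 to 0.58), which did not pass the test (adjusted p = 0.11). PLAUR missed the threshold in all 19 alternatives too, with changes of 0.20 to 0.35. In deposited TPM, its groups overlapped at 0.904 to 1.11 without DOX and 1.1 to 1.59 with DOX. The ratio of PLAU to PLAUR in TPM was 2.46, 2.20 and 2.10 in the DOX-negative libraries and 4.34, 4.97 and 6.24 in the DOX-positive libraries, with means of 2.25 ± 0.182 and 5.18 ± 0.967 (SD, n = 3). Urokinase transcript thus exceeded receptor transcript in every library, by a ratio that was larger with DOX. PLAU was chosen for its rise, which favours larger ratios of PLAU to every other member with DOX.

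None of the 3 inhibitors among the members passed the test. SERPINI1 (chr3:167735721-167825569), which encodes neuroserpin, an inhibitor of tPA made mainly by neurons, was at 8.89, 8 and 7.67 CPM without DOX and 8.84, 7.02 and 9.83 CPM with DOX. The lowest and the highest library were both DOX-positive, so the groups overlapped. Its log2 fold change was 0.07 (SE 0.13, 95% interval -0.21 to 0.35, adjusted p = 0.81). SERPINE2 (chr2:223975045-224039286), protease nexin-1, which inhibits urokinase and thrombin, had between 6 and 18 counts per library and a change of 0.11 (SE 0.39, 95% interval -0.73 to 0.95, adjusted p = 0.91). At that depth changes within this wide interval were not detectable. SERPINB2, plasminogen activator inhibitor type 2, had 0 counts in all 6 libraries, which allows up to 3 counts per library, or 0.04 to 0.063 CPM, and it was not tested. In TPM, PLAU and SERPINI1 were close to parity without DOX, with ratios of 1.01, 0.954 and 1.00, and PLAU exceeded SERPINI1 with DOX, with ratios of 2.16, 3.26 and 2.91.

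LRP1 (chr12:57128483-57213361) encodes the large endocytic receptor that clears activator and serpin complexes. It was at 78.3, 89.6 and 89.2 CPM without DOX and 93.8, 86.3 and 57 CPM with DOX. DOX-positive replicate 1 was the highest and DOX-positive replicate 3 the lowest of all 6 libraries, so the groups overlapped. The log2 fold change was -0.12 (SE 0.16, 95% interval -0.47 to 0.24, adjusted p = 0.73), and without DOX-positive replicate 3 it was 0.072. DOX-positive replicate 3 was also the library with the most PLAU, so the TPM ratio of PLAU to LRP1 ran from 1.67 to 4.11 in DOX-positive libraries, against 0.698 to 0.942 in DOX-negative libraries.

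Both docking subunits rose with DOX. ANXA2 (chr15:60347151-60397986) encodes annexin A2, which binds plasminogen and tPA, and was at 161, 149 and 144 CPM without DOX and 191, 206 and 208 CPM with DOX. S100A10 (chr1:151982915-151993859) encodes p11, the small partner whose carboxyl end binds plasminogen and which annexin A2 protects from degradation, and was at 33.7, 34 and 30.5 CPM without DOX and 46.8, 43.6 and 39.5 CPM with DOX. In both genes all DOX-positive libraries were above all DOX-negative libraries, although S100A10 was least raised in DOX-positive replicate 3, the library with the most PLAU and ANXA2. ANXA2 changed by 0.41 (SE 0.074, 95% interval 0.25 to 0.58, adjusted p = 0.012), which is 1.33-fold. S100A10 changed by 0.40 (SE 0.089, 95% interval 0.21 to 0.6, adjusted p = 0.026), which is 1.32-fold. The TPM ratio of ANXA2 to S100A10 was 2.46 ± 0.116 without DOX and 2.49 ± 0.319 with DOX (SD, n = 3), and its library values overlapped.

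The ANXA2 call was lost without DOX-negative replicate 2 (adjusted p = 0.078) or 3 (adjusted p = 0.085), in a range of 1e-04 to 1 over 19 alternatives. The S100A10 call was lost without DOX-negative replicate 1 (adjusted p = 0.053), 2 (0.098) or 3 (0.15) or DOX-positive replicate 1 (0.065), in a range of 0.0018 to 1, while both changes stayed between 0.34 and 0.46 in all of these fits. ANXA2 has transcribed pseudogenes whose near-identical sequence could share reads with it. Of these, ANXA2P2 had 390 to 802 counts per library and a change of 0.33 (SE 0.11, adjusted p = 0.12), and ANXA2P1 and ANXA2P3 had at most 22 counts, against 6848 to 15342 counts for ANXA2.

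Among the 7 tested members other than PLAU, 2 were called higher (ANXA2 and S100A10) and 0 lower, and 3 had groups that did not overlap, all higher. Over all tested genes, 2.91% were called higher and 14.8% were higher without overlap. The median log2 fold change of these 7 was 0.23, against 0.00034 over all tested genes. The members were picked with results of these libraries known, so these counts describe the list and are not a test of it.

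**Figure D2:**
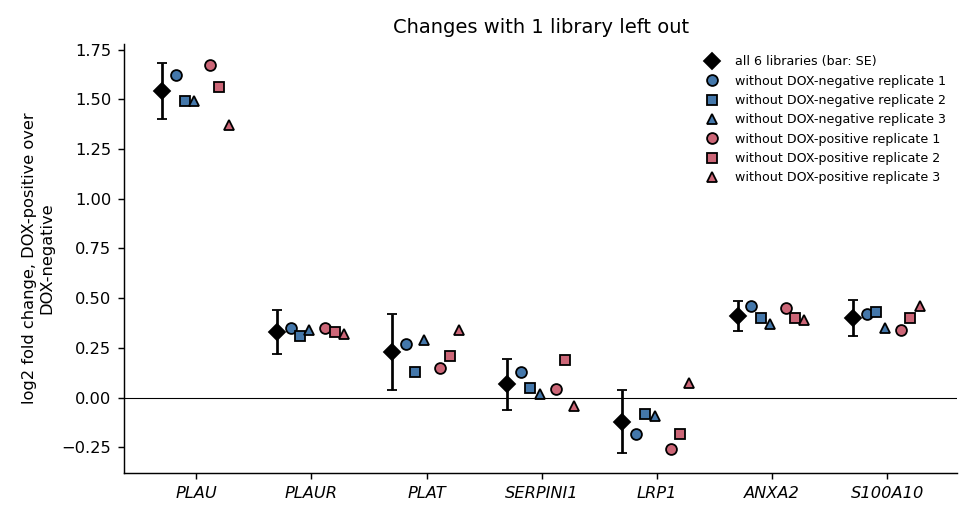
Log2 fold change (DOX-positive over DOX-negative) of 7 members from all 6 libraries, with its SE, and from the 6 fits that each leave out 1 library. PLAU stayed between 1.37 and 1.67, ANXA2 and S100A10 stayed above 0, and LRP1 and SERPINI1 crossed 0 without DOX-positive replicate 3.

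The order of the levels was read per length in TPM. Without DOX it ran from ANXA2 (48.8 ± 8.09 TPM, SD, n = 3) and S100A10 (19.9 ± 3.68) through LRP1 (3.03 ± 0.422), SERPINI1 (2.38 ± 0.425) and PLAU (2.36 ± 0.418) to PLAUR (1.04 ± 0.118), PLAT (0.16 ± 0.0142) and SERPINE2 (0.0379 ± 0.0196). The ranges of SERPINI1 and PLAU overlapped. LRP1 touched or overlapped both in range and was above both within each DOX-negative library, and the other neighbours did not overlap. With DOX, PLAU was at 6.9, 5.48 and 8.31 TPM (mean 6.9 ± 1.42), above LRP1 at 4.13, 2.52 and 2.02 TPM and SERPINI1 at 3.19, 1.68 and 2.86 TPM in every library. PLAU thus took the place behind S100A10, which was at 27 ± 7.25 TPM, and ANXA2 stayed the most abundant at 66.1 ± 10.8 TPM. The transcript of the docking protein ANXA2 was 19.9, 21.6 and 20.8 times that of PLAU without DOX, and 11.1, 10 and 8.08 times with DOX. TPM levels carry the share that small structured RNAs took of each library, since RN7SK, SNORD3A and RN7SL2 held 58% to 66.1% of all TPM.

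**Figure D3:**
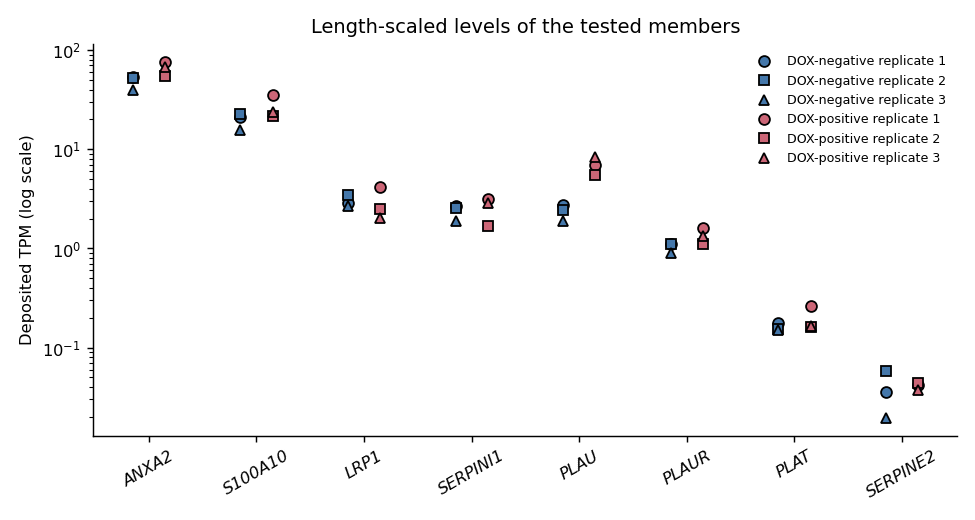
Deposited TPM of the 8 tested members on a log axis, ordered by their mean without DOX, with 1 point per library (blue DOX-negative, red DOX-positive). ANXA2 lies between 39.5 and 76.3 TPM and SERPINE2 under 0.06 TPM, and PLAU moves from among LRP1 and SERPINI1 to above both.

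A list of 54 further genes of the pathway was compared in the same fit, of which 35 were tested, 2 were called higher (ITGB6 and FN1), 1 was called lower (VLDLR) and 32 did not pass the test. Of all tested genes, 2.91% were called higher and 1.96% lower. The pathway groups did not overlap for 15 of 35, beside 28.1% of all tested genes, and the median log2 fold change was -0.01. Plasminogen itself (PLG) had 0 counts in all 6 libraries, which allows up to 3 counts per library. Of 10 zymogen and plasma protein genes, 3 were tested and none was called. F12, which encodes coagulation factor XII, had a log2 fold change of 0.15 (adjusted p = 0.59), and VTN, which encodes the matrix and plasma protein vitronectin that also binds uPAR, one of 0.92 (adjusted p = 0.27) at low counts.

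Among 15 receptor partners, integrins and co-receptors that bind or signal with uPAR, 11 were tested, 1 was called and 7 did not overlap, beside 4.87% and 28.1% of all tested genes. The called gene, ITGB6, encodes the integrin subunit β6, which pairs with αv to activate latent TGF-β, and was at 5.12, 4.82 and 5.23 CPM without DOX and 7.21, 7.2 and 7.89 CPM with DOX. All DOX-positive libraries were higher, by 0.56 on the log2 scale (SE 0.11, adjusted p = 0.015). The call was lost without DOX-negative replicate 2 (adjusted p = 0.094) or 3 (0.08), in a range of 0.00072 to 0.58. The log2 fold change was 0.38 for ITGB5, the β5 subunit of a vitronectin receptor (adjusted p = 0.06), 0.87 for ITGA5, the α subunit of the fibronectin receptor (adjusted p = 0.07), and 0.20 for EGFR (adjusted p = 0.14), none of which passed. None of the 5 other docking proteins was called, and ENO1, the glycolytic enzyme that also docks plasminogen, was at 3010, 2500 and 1360 CPM in the DOX-positive libraries, a wide spread around the 2060 to 2770 CPM of the DOX-negative libraries. All 6 other endocytic receptors and chaperones were tested and had changes under 0, with a median of -0.34. Of these 6, VLDLR, a receptor related to LRP1 that also takes up urokinase complexes, was called lower. It fell from 64.1, 70.1 and 76.5 CPM to 56.8, 47.9 and 44.9 CPM (log2 fold change -0.49, SE 0.099, adjusted p = 0.019), with no overlap. The VLDLR call was lost without DOX-negative replicate 2 (adjusted p = 0.078) or 3 (0.12) or DOX-positive replicate 2 (0.053) or 3 (0.051), in a range of 0.00026 to 1. LRP2 had a log2 fold change of -0.55 and did not pass (adjusted p = 0.087).

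No protease that activates pro-urokinase, and no inhibitor of those proteases, was called among 6 tested, beside 4.87% of all tested genes. HPN (hepsin, a membrane serine protease of prostate epithelium) did not pass (log2 fold change 0.72, SE 0.22, adjusted p = 0.086) at 23 to 70 counts per library. Of 9 substrates of plasmin or urokinase, 4 were tested and only FN1 was called, beside the same share of all tested genes. FN1 encodes fibronectin, a matrix protein that plasmin cleaves, and rose from 402, 314 and 297 CPM to 631, 770 and 905 CPM. Its DOX-positive libraries ranked as those of PLAU did, with replicate 3 highest. The change was 1.19 (SE 0.14, adjusted p = 0.0025). FN1 was also called with each library left out, and its adjusted p ranged from 1.2e-14 to 0.13 over 19 alternatives, of which 2 lost the call.

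**Figure D4:**
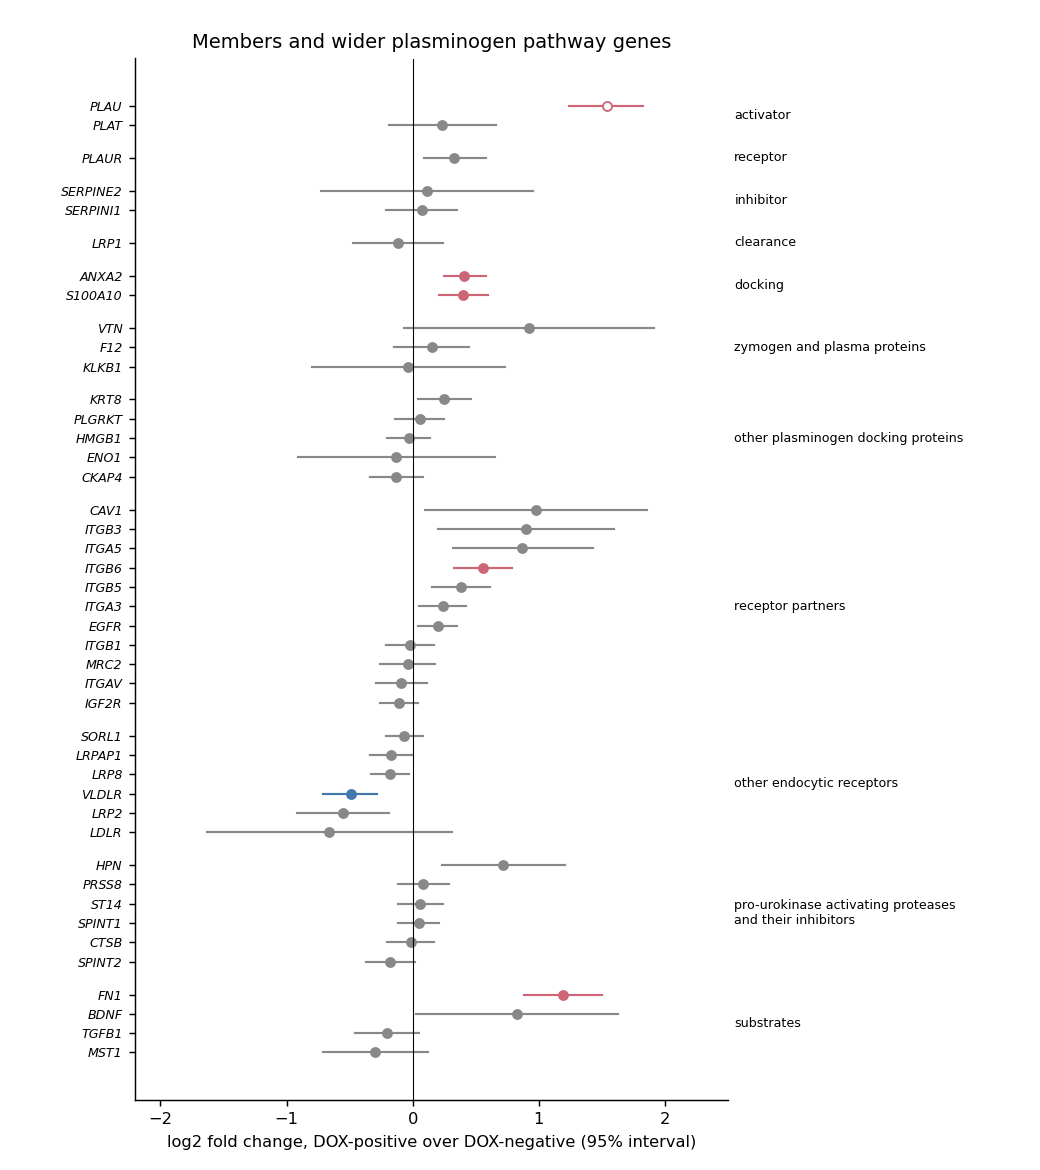
Log2 fold change (DOX-positive over DOX-negative) with its 95% interval for the tested members and the tested genes of the wider pathway, grouped by role. Red marks genes called higher, blue a gene called lower and grey genes not called, and the open symbol marks PLAU, which was chosen for its change; PLAU and FN1 lie above 1 and all 6 other endocytic receptors lie below 0.

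Transcription factors known to act on PLAU were listed as 13 genes of the AP-1, ETS, EGR and NF-κB families, of which 12 were tested. Of these 12, 2 were called higher, 2 lower and 8 had groups that did not overlap, with a median log2 fold change of 0.17. The shares over all tested genes were 2.91%, 1.96% and 28.1%. AP-1 is a dimer of a FOS-type and a JUN-type protein, and its called FOS-type genes moved in opposite directions. FOSL2 was at 25.1, 26.3 and 26 CPM without DOX and 32.7, 36.5 and 38.9 CPM with DOX, a change of 0.48 (SE 0.087, adjusted p = 0.012). FOSL1 had 15, 10 and 3 counts without DOX and 33, 28 and 40 counts with DOX, a change of 1.62 (SE 0.36, adjusted p = 0.028) at low depth. Both were higher in every DOX-positive library. FOS was at 93.3, 122 and 85.4 CPM without DOX and 48, 56.1 and 48 CPM with DOX, a change of -0.99 (SE 0.12, adjusted p = 0.0024). EGR1, an immediate-early zinc finger factor, was at 171, 207 and 132 CPM without DOX and 87.7, 89.2 and 93.5 CPM with DOX, a change of -0.92 (SE 0.13, adjusted p = 0.0058). FOS and EGR1 were lower in every DOX-positive library. The log2 fold changes of FOSB (-0.4, adjusted p = 0.064, no overlap), JUN (0.27, adjusted p = 0.099), NFKB1 (0.31, adjusted p = 0.056) and ETV4 (0.53, adjusted p = 0.085) did not pass.

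Leaving out 1 library ended several of these calls. The FOSL2 call was lost without DOX-negative replicate 2 (adjusted p = 0.069) or 3 (0.082), in a range of 6.9e-05 to 1. The FOSL1 call was lost without DOX-negative replicate 2 (0.11) or 3 (0.11) or DOX-positive replicate 2 (0.057) or 3 (0.08), in a range of 0.01 to 0.11. The EGR1 call was lost without DOX-positive replicate 2 (0.084), in a range of 1.9e-09 to 0.41. FOS was called with each library left out, and lost its call in both fits of log2(TPM + 1) (0.053 and 0.24), in a range of 7.4e-12 to 0.24.

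The genes whose profile was most like that of PLAU were ranked by Pearson's r of log2 CPM over the 6 libraries among 14580 candidate genes averaging 50 or more counts. The r was 0.9978 for ATF3, a stress-induced partner of JUN proteins, 0.9976 for THBS1, a matrix glycoprotein, 0.9963 for TBC1D9, a Rab GTPase-activating domain protein, 0.996 for ARHGAP24, a Rac GTPase-activating protein, and 0.9959 for WWTR1 (TAZ), a coactivator of TEAD factors. These are descriptions over 6 points that share libraries and fall in 2 groups, and 409 genes (2.81%) had an r over 0.95. THBS1 was at 16.4, 14.3 and 15.3 CPM without DOX and 25.2, 28.6 and 33.5 CPM with DOX. Like the other genes named here, it had the DOX-positive order of PLAU, which the ranking by r favours. The changes were 0.92 for THBS1, 0.79 for WWTR1, 0.40 for ATF3, 0.40 for TBC1D9 and 0.26 for ARHGAP24, all smaller than that of PLAU, and ARHGAP24 was not called (adjusted p = 0.099).

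PLAU and PLAUR are also made by endothelial cells, fibroblasts and macrophages, so markers of those cells were summed in each library. The sum of 4 endothelial markers was 4.19 to 5.43 CPM without DOX and 7.17 to 8.69 CPM with DOX. CDH5 (change 0.94, adjusted p = 0.013) and VWF (0.97, adjusted p = 0.018) were called higher, while KDR had a log2 fold change of -0.74 and was not called (adjusted p = 0.44) and PECAM1 had 0 to 6 counts per library. The sum of 7 fibroblast markers was 25.2 to 30.7 CPM and 23.5 to 27.9 CPM, with COL1A1 and LUM called higher, COL1A2 at a log2 fold change of -0.71 with no overlap and not called (adjusted p = 0.2), COL3A1 at 0 in every library and 4 of the 7 under a mean of 10 counts. The sum of 5 monocyte and macrophage markers was 2.52 to 2.84 CPM and 3.36 to 3.87 CPM. Of these, CD68 was called higher and CD14 was not called (log2 fold change 0.14, adjusted p = 0.7). PTPRC was at 0 or 1 count, and PTPRC, CSF1R and LYZ were under 10 counts in every library. The endothelial and monocyte sums were, as PLAU was, higher in every DOX-positive than in every DOX-negative library, and so were 14.8% of all tested genes. A part of such cells in the PLAU change was not tested. In bulk RNA, a change in the number of cells that make a transcript and in its amount per cell cannot be told apart.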

How the data were processed

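RNA-seq libraries of 3 DOX-negative and 3 DOX-positive H660 cultures, grouped by their titles, were analysed. Per the labels, total RNA was made into stranded mRNA libraries. RN7SK, which is not an mRNA, held 5.83% to 7.79% of the counts of a library, so the library type is uncertain. For 28008 gene symbols the authors deposited raw counts, and for 25673 they deposited TPM (length-scaled counts). The submitters' processing notes name STAR, DESeq2, GRCh38 and hg38, and versions, annotation and strand setting were not given in the sources used here. All columns matched a sample by name.

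The count test was that of edgeR 4.0.16 under R 4.3.3, using filterByExpr, TMM factors and robust glmQLFit with glmQLFTest, without covariates, on 17026 genes. CPM use TMM factors, positive changes mean higher with DOX, and SE come from the F statistic. With 3 libraries per group an exact permutation test cannot go below p = 0.1. Intervals for a count of 0 cover counting error only. No 2 libraries of a group agreed within sampling noise. Code was tested on simulated counts. The members and gene lists were chosen with earlier results of these data known, and some listed genes are not reported here and are left out of the counts. Named genes are the members, the called genes of the lists (up to 4 per role) and the 5 genes most like PLAU. Further genes with values (genes not called, markers and pseudogenes) come from the same lists and were chosen after their values were seen. Alternatives were other scalings and count filters, DESeq2 1.42.0, limma-voom and limma-trend (limma 3.58.1) on log2 TPM with pseudocounts of 1 and 0.1, a replicate block and leaving out each library. Fits on protein-coding genes and on TPM rescaled over them were added after seeing the data. Promoter windows are from RefSeq (GRCh38.p14), and exons left out of the PLAU and ANXA2 stretches are from GENCODE on GRCh38.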

Additional observations from a re-analysis of the deposited data

How the results depend on the processing

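The PLAU change of 1.54 lay between 1.23 and 1.67 in all 19 alternatives, at 1.23 in both fits of log2(TPM + 1), where the pseudocount shrinks low genes, and at 1.37 to 1.67 with 1 library left out. Of the members, 3 were called higher (PLAU, chosen for its rise, is counted as a description), and this became 1, 0 and 1 in the fits of log2(TPM + 1) with a filter, log2(TPM + 1) without one and log2(TPM + 0.1), with neither ANXA2 nor S100A10 called in any of these, while TPM rescaled over protein-coding genes again gave 3. The further pathway genes called higher (2) became 1, 0 and 1 in the same fits, and those called lower (1) became 0, 0 and 0, and 2 with DESeq2. The regulators called higher (2) became 0, 0 and 0, then 1 with rescaled TPM and 1 with at least 10 counts in every library, and those called lower (2) became 0, 0 and 1. Those 3 TPM fits called 31, 11 and 35 genes in all, against 829 (3597 at an unadjusted p under 0.05), and the unfiltered one had 1337 at an unadjusted p under 0.05. With 1 library left out, members called higher, PLAU included, numbered 1 to 3, pathway genes higher 1 to 3 and lower 0 to 2, and regulators higher 0 to 2 and lower 2. The low ends came without DOX-negative replicates 2 and 3, where 127 and 58 genes were called in all, and for pathway genes called lower also without DOX-positive replicates 2 and 3, where 828 and 375 were. Neither ANXA2 nor S100A10 was called without DOX-negative replicate 2 or 3, so the member call left there was that of PLAU, which was chosen for its rise. The sign turned for SERPINE2 (-0.11 when DOX-negative replicate 3 was left out and -0.081 when DOX-positive replicate 2 was), in a range of -0.11 to 0.47. It turned without DOX-positive replicate 3 for SERPINI1 (-0.043, range -0.043 to 0.19) and LRP1 (0.072, range -0.26 to 0.072). None of these was called. The cause of these shifts was not tested. Same-numbered libraries did not deviate together (correlations of -0.54, 0.019 and -0.1 over 14587 genes), so the numbers do not pair them. With a replicate block, 998 genes were called in all, members called higher stayed 3, the PLAU change was 1.52, regulators called lower were 3, and FN1 had an adjusted p of 0.062. Depth limits SERPINE2 and FOSL1, with under 50 counts per library.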
